A study of Mus musculus with 7 samples.

Results

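The genes examined here encode the receptor chains through which CD8+ T cells (CD8-TC) sense interferon-γ (Ifngr1, Ifngr2), type I interferons (Ifnar1, Ifnar2), IL-10 (Il10ra, Il10rb), IL-12 (Il12rb1, Il12rb2) and IL-18 (Il18r1, Il18rap). For each of the 10 genes, every deposited Runx3-bound or H3K4me1-marked region was taken whose midpoint fell in the gene body or within 20 kb of it. Gene bodies were those of the GENCODE annotation of NCBIM37, the assembly also known as mm9. This gave 14 of the 4934 Runx3-bound regions and 84 of the 76705 H3K4me1-marked regions.

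The study mapped the transcription factor Runx3 and monomethylated lysine 4 of histone H3 (H3K4me1, a mark of enhancers and of promoter flanks) by chromatin immunoprecipitation and sequencing in resting CD8-TC. The cells were wild-type splenic CD8+ T cells of the outbred mouse strain ICR, picked out with magnetic beads against CD8, with no stimulation, fixed when fresh and kept frozen. Each of the 7 libraries is labelled as cells pooled from 18 mice. There were 3 libraries for Runx3, made from 2 immunoprecipitations, 2 for H3K4me1 and 2 for nonimmune serum (NIS), the control. The age and sex of the mice are not given in the sources used here. The Runx3 antibody was a polyclonal antibody made by the authors' group, and all cells carried intact Runx3.

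The authors joined the reads of both repeats before they called regions, and the list used here for each antibody is 1 pooled list, with positions but no height, fold enrichment or p-value. There is no spread between replicates to set beside any count. For that reason no test was run, and each value is given beside the same value over all 4934 Runx3-bound regions, all 76705 H3K4me1-marked regions or all 22350 protein-coding genes. Depth behind a single region cannot be read from the lists. A region that is missing from a list may have been below the calling threshold. Ranges given in brackets after a share or count are 95% Wilson intervals, and those after a median are 95% intervals from order statistics. Both cover counting error alone and treat genes or regions as independent.

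The 10 receptors belong to 2 signalling classes. Interferon, IL-10 and IL-12 receptors are pairs of transmembrane chains without enzymatic activity that carry JAK kinases on their tails. When the ligand joins the chains, the kinases phosphorylate STAT proteins, which enter the nucleus. The IL-18 receptor belongs to the IL-1 receptor family and signals through the adaptor MyD88 to NF-κB. In CD8-TC, IL-12, IL-18 and type I interferons act during infection as signals beside the antigen receptor, and IL-12 with IL-18 elicits interferon-γ. Runx3, a RUNX family factor with high levels in cytotoxic lymphocytes, binds the letters TGTGGT or TGTGGC and also TGCGGT or TGCGGC, on either strand, here called a RUNX motif. Distances of a motif from the centre of a region are taken at the middle of the motif, and distances between motifs from first letter to first letter on the plus strand.

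The sequences of regions that carry the findings are printed from the NCBIM37 reference, plus strand, 5′ to 3′, with RUNX motifs of either strand in capitals. The reference is C57BL/6J, so the ICR mice may differ from it at single bases. The first set shows 1 region for each receptor type that has Runx3 binding outside exons, as the 200 bp around the midpoint. The exception is Ifngr2-R1, for which the 200 bp with the most RUNX motifs are shown.
Ifngr1-R2, intron of Ifngr1, chr10:19318051-19318250: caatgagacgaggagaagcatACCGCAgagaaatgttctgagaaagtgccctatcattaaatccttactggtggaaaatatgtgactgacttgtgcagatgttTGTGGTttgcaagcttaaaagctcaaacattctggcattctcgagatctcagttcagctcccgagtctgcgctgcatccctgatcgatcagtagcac
Ifngr2-R1, upstream of Ifngr2, chr16:91534119-91534318: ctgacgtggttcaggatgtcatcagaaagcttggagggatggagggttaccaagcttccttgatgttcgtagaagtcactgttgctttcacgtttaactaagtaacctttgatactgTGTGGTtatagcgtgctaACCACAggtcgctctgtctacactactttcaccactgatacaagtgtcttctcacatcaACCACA
Ifnar1-R2, downstream of Ifnar1, chr16:91523328-91523527: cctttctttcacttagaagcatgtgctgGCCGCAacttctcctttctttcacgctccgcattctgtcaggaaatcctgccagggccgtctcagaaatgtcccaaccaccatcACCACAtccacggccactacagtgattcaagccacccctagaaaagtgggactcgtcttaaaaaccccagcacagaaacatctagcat
Ifnar2-R1, upstream of Ifnar2, chr16:91366907-91367106: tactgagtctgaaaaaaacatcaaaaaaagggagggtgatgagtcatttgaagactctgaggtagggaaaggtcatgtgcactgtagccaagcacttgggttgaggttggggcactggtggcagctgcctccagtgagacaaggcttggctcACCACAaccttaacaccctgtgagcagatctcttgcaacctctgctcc
Il10rb-R1, downstream of Il10rb, chr16:91442670-91442869: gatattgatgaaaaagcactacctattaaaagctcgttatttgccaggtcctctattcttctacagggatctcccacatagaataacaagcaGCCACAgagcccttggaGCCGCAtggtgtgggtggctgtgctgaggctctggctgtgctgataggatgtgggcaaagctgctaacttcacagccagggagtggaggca
Il12rb2-R1, intron of Il12rb2, chr6:67298109-67298308: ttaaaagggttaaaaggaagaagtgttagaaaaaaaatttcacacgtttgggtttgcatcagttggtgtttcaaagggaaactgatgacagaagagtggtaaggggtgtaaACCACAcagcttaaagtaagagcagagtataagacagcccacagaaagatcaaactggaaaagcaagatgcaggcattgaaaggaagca
Il18r1-R3, intron of Il18r1, chr1:40532647-40532846: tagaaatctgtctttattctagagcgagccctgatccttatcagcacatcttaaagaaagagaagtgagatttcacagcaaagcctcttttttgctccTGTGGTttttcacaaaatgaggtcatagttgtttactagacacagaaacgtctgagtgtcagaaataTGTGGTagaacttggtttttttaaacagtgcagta

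The second set holds single motifs with 7 bases on each side, for the regions at transcription start sites (TSS), where the window runs into untranslated exon sequence, and for the intronic site of Il18r1 with the nearest ETS motif.
Il18r1-R1, before the start of Il18r1, chr1:40522311-40522330: tcccaatTGTGGCtttccac
Il18r1-R1, exon at the start of Il18r1, chr1:40522449-40522468: tgaagggTGTGGCgcgcaca
Il18r1-R1, exon at the start of Il18r1, chr1:40522480-40522499: tggttctTGTGGTtgagtag
Il12rb2-R2, start of the shorter Il12rb2 transcript, chr6:67289652-67289671: tgcttggTGTGGTggccttt
Il18r1-R2, intron of Il18r1, chr1:40530723-40530742: cttttgcTGTGGTtaacatc

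Runx3-bound regions lay at 7 of the 10 receptor genes (70.0%, 39.7 to 89.2%), against 19.8% of all protein-coding genes. Il18r1 had 4, Ifngr1, Ifnar1, Il10rb and Il12rb2 had 2 each, and Ifngr2 and Ifnar2 had 1 each. Il10ra, Il12rb1 and Il18rap had 0. The share depended on the margin: within 5 kb of the gene body only 3 of the 10 receptors (Ifngr1, Il12rb2 and Il18r1) had a Runx3-bound region, against 13.0% of all genes. At least 2 Runx3-bound regions stood at 5 of the 10 genes (23.7 to 76.3%), a number reached by 4.67% of all genes.

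The share of genes with a region depends on how long the gene is, and the receptor genes, with a median of 20.9 kb, were longer than the median protein-coding gene of 15.4 kb. Among the 9245 genes in the length range of the receptors, 13.0 to 84.9 kb, the share with a Runx3-bound region was 22.3%. Among the 10497 genes whose start lay inside an H3K4me1-marked region or had such a region within 2 kb on both sides, as was the case for all 10 receptors, it was 29.6%. The receptors' share was above both. It was near the share among loci as richly marked as most of the receptors. Of the genes with at least the H3K4me1 cover of a given receptor, the share with a Runx3-bound region was 71.5% for the cover of Ifngr1, 65.5% for Ifngr2, 65.6% for Ifnar1, 68.5% for Ifnar2, 84.2% for Il10ra, 71.2% for Il10rb and 72.4% for Il12rb1. It was lower for the cover of Il18r1 (48.7%), Il12rb2 (42.6%) and Il18rap (30.2%). As Ifnar2, Il10rb, Ifnar1 and Ifngr2 are neighbours on chromosome 16, and Il18r1 and Il18rap are neighbours on chromosome 1, the 10 genes are not 10 independent loci.

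**Figure D1:**
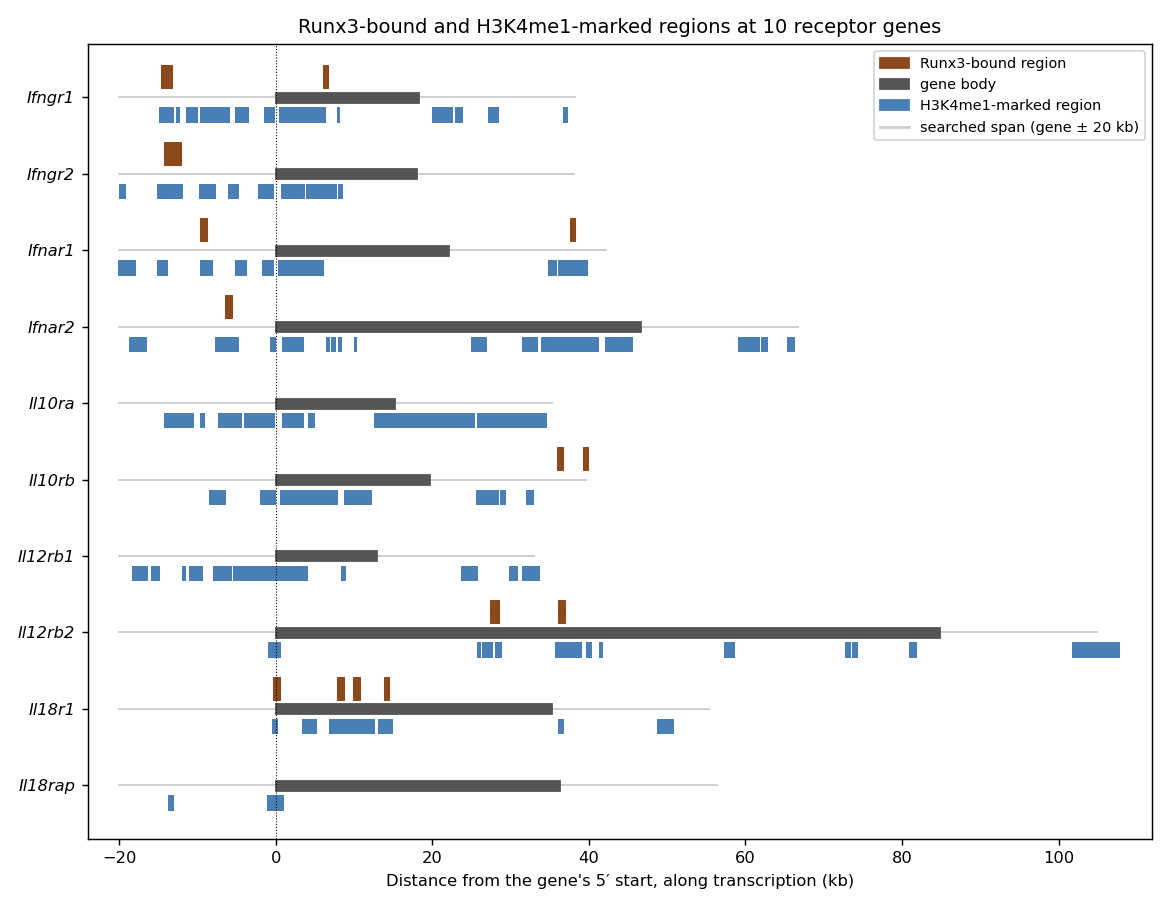
Runx3-bound regions (brown, above) and H3K4me1-marked regions (blue, below) along the 10 receptor genes (grey bars), by distance in kb from each gene's 5′ start along transcription, with the searched span of 20 kb on both sides as a thin line. Only regions with a midpoint in the span are drawn, so the wide H3K4me1-marked region over both Il10rb sites, centred just outside it, is missing from that row, and Il10ra, Il12rb1 and Il18rap show no brown box.

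H3K4me1 was present at all 10 receptors (100%, 72.2 to 100%), as at 73.6% of protein-coding genes. The number of marked regions ran from 2 at Il18rap to 16 at Ifnar2, with a median of 8.50 against 4 over all genes. The marked part of the gene and its 20-kb flanks had a median of 33.4% (range of order statistics 13.2 to 43.4%), against 5.75% over all genes. Only Il18rap, at 3.84%, lay below that general median. Of the 84 distinct regions, 10 belonged to a pair of receptors, as Ifnar2 overlaps Il10rb and Il18r1 adjoins Il18rap.

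**Figure D2:**
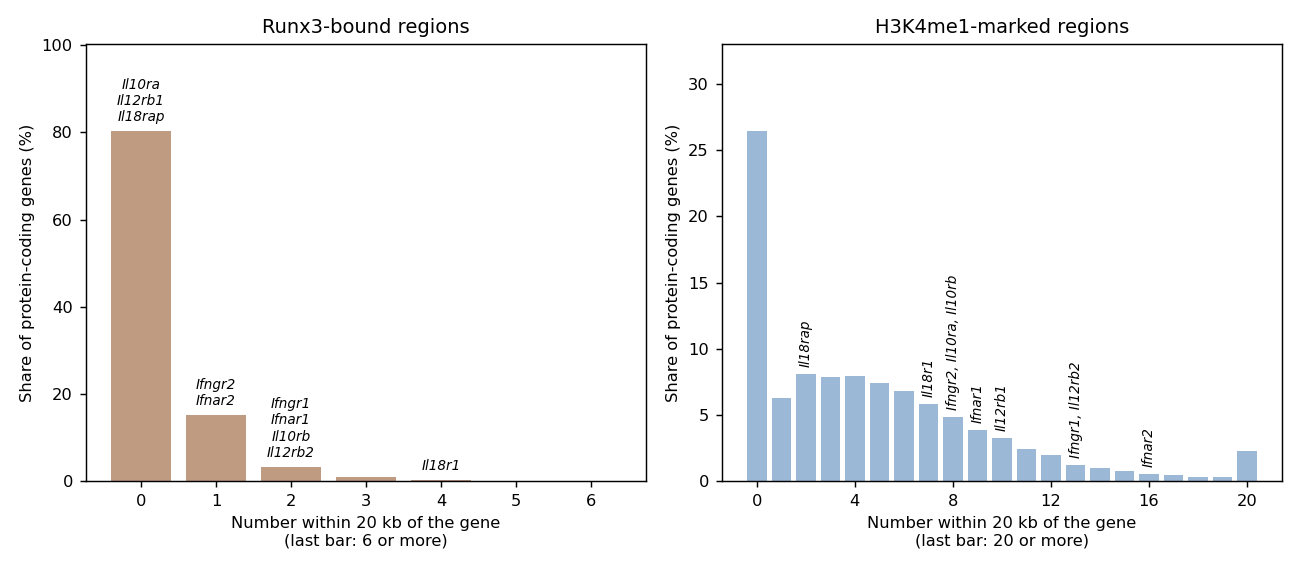
Share of the 22350 protein-coding genes (%) by the number of Runx3-bound regions (left) and of H3K4me1-marked regions (right) within 20 kb, with the names of the 10 receptor genes set above the bar of their own count. Il18r1 stands at 4 Runx3-bound regions, where 0.474% of genes have as many or more, while Il18rap has 2 H3K4me1-marked regions, a number that 67.3% of genes reach.

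The start of all 10 receptors lay inside H3K4me1 or in a gap with H3K4me1 within 2 kb on both sides (72.2 to 100%), against 47.0% of all genes. A gap of this kind is the usual look of an active promoter, where monomethylation gives way to trimethylation at the start itself. At the annotated start itself, the gap was seen at Ifngr1, Ifngr2, Ifnar1 and Il10ra. It began 94 bp upstream and ended 386 bp downstream of the start of Ifngr1, 195 and 715 bp at Ifngr2, 231 and 364 bp at Ifnar1, and 99 and 855 bp at Il10ra. At the other 6 genes, Ifnar2, Il10rb, Il12rb1, Il12rb2, Il18r1 and Il18rap, the annotated start lay inside a marked region, which held for 17.7% of all genes (receptors 60.0%, 31.3 to 83.2%). Ifnar2 and Il10rb nevertheless had a gap just past the start. The marked region ended 46 bp downstream at Ifnar2 and 113 bp downstream at Il10rb, and the next began at 843 and 563 bp. The split into 4 and 6 genes thus rests on a single annotated start per gene. Trimethylation was not among the marks analysed here.

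Ifngr1 (ENSMUSG00000020009.6, chr10:19311755-19330035, plus strand), the chain that binds interferon-γ and carries Jak1, had 2 Runx3-bound regions and 13 H3K4me1-marked regions. As many H3K4me1-marked regions were found at 6.96% of genes, and 40.0% of the locus was covered, a share reached by 2.61% of genes. Ifngr1-R1, chr10:19297125-19298480, lay 14.0 kb upstream of the start between protein-coding genes. It was 1356 bp wide, in the top 2.51% of Runx3-bound regions, and wholly inside an H3K4me1-marked region of 2018 bp. Its 5 RUNX motifs, of which 4 were TGTGGT, all stood away from the centre, the nearest at 191 bp. Ifngr1-R2, chr10:19317845-19318457, lay in an intron 6.40 kb downstream of the start. This narrow region of 613 bp sat at the far edge of the H3K4me1-marked region of 6074 bp that begins behind the promoter gap, with 60.4% of its length covered, and its TGTGGT lay 6 bp from its centre, as printed above. The 2 regions were 20.3 kb apart.

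Ifngr2 (ENSMUSG00000022965.7, chr16:91547317-91565414, plus strand) encodes the signalling chain of the same receptor, which carries Jak2. It had 1 Runx3-bound region and 8 H3K4me1-marked regions, with 30.7% of the locus covered. Its region, Ifngr2-R1, chr16:91533103-91535179, lay 13.2 kb upstream of the start. At 2077 bp it was the 5th widest of all 4934 Runx3-bound regions. It held 8 RUNX motifs, of which 7 were TGTGGT, and none of them lay whole in the central 200 bp, since the nearest lay 98 bp from the midpoint and ran over the border. The printed window beside the centre holds 3 of them. At both Ifngr1 and Ifngr2, then, a wide Runx3-bound region with several RUNX motifs stood upstream, at 14.0 and 13.2 kb. Their motif counts were not set beside those of other regions of such width.

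Ifnar1 (ENSMUSG00000022967.6, chr16:91485483-91507686, plus strand), the chain that carries Tyk2, had 2 Runx3-bound regions and 9 H3K4me1-marked regions over 31.4% of its locus. Ifnar1-R1, chr16:91475858-91476682, was 825 bp wide and lay 9.21 kb upstream of the start. Its centre held TGTGGC and TGCGGT, and 80 bp before the centre the letters TGAGTCA, which AP-1 factors bind. Ifnar1-R2, chr16:91523149-91523707, was the narrowest of the 14 at 559 bp and lay 37.9 kb downstream of the start of Ifnar1, that is 15.7 kb past the end of the gene and 23.9 kb before the start of Ifngr2. It carried TGCGGC and TGTGGT, with the ETS letters AGGAAA between them, 39 bp from the first.

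Ifnar2 (ENSMUSG00000022971.11, chr16:91373028-91419696, plus strand), the chain with high affinity for type I interferons that carries Jak1, had the most H3K4me1-marked regions of the 10, with 16 over 35.5% of its locus. As many were found at 3.98% of genes. Its single Runx3-bound region, Ifnar2-R1, chr16:91366569-91367446, was 878 bp wide and lay 6.02 kb upstream of the start, wholly inside an H3K4me1-marked region of 2967 bp. It held a single RUNX motif, TGTGGT, 55 bp past the centre, and TGAGTCA 58 bp before the centre. An upstream region with both a RUNX motif and an AP-1 motif within the central 200 bp was present at each of the type I interferon receptor genes. These genes are neighbours, and the share of all Runx3-bound regions with both motifs was not counted.

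Il10ra (ENSMUSG00000032089.8, chr9:45061922-45077232, minus strand), which encodes the chain specific for IL-10, had no Runx3-bound region and the largest H3K4me1 cover of the 10 receptors. Its 8 marked regions took up 66.8% of the locus, a share reached by 38 of the 22350 genes (0.170%). Of these 38 genes, 32 (84.2%) had a Runx3-bound region. The widest marked region at Il10ra, chr9:45051826-45064680, was 12855 bp long and covered the 3′ end of the gene, and the next, of 8939 bp, lay directly beyond it. The nearest Runx3-bound region, chr9:45099735-45100410, lay 22.8 kb from the gene body, just outside the margin.

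Il10rb (ENSMUSG00000022969.5, chr16:91406409-91426074, plus strand) encodes the second IL-10 chain, which carries Tyk2 and is shared with the receptors for IL-22 and interferon-λ. It had 8 H3K4me1-marked regions, 41.7% cover and 2 Runx3-bound regions behind its 3′ end. All 8 marked regions were counted at Ifnar2 too. The cover also took in part of a marked region of 13671 bp whose midpoint lay outside the margin. Il10rb-R1, chr16:91442395-91443145, was 751 bp wide and 36.4 kb from the start. Its TGTGGC and TGCGGC began 17 bp apart on the minus strand near its centre. Il10rb-R2, chr16:91445638-91446366, was 729 bp wide and 39.6 kb from the start, with TGTGGC 88 bp past the centre and an ETS motif 59 bp from it. Both lay 16.7 and 19.9 kb from the gene body, so that a margin of 5 kb leaves out both.

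**Figure D3:**
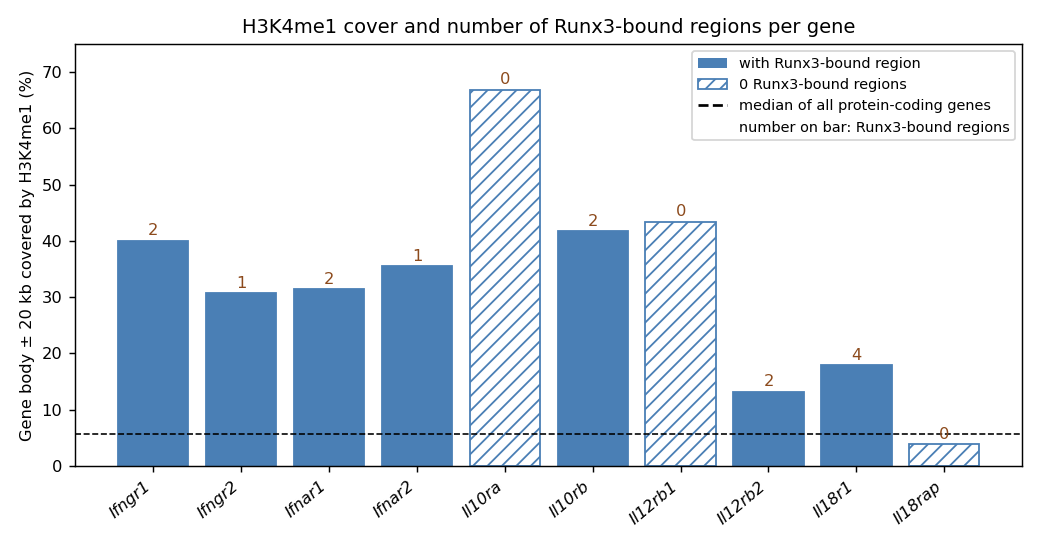
Share of each receptor gene with 20 kb on both sides that was covered by H3K4me1-marked regions (%), with the number of Runx3-bound regions above each bar and the median of all protein-coding genes (5.75%) as a dashed line. The highest cover, at Il10ra (66.8%) and Il12rb1 (43.4%), came with 0 Runx3-bound regions, and Il18r1, with 4, had 17.9%.

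Il12rb1 (ENSMUSG00000000791.7, chr8:73332348-73345323, plus strand) encodes the chain that IL-12 and IL-23 receptors share. It had no Runx3-bound region, and the nearest, chr8:73397437-73398100, lay 52.4 kb from the gene body. Its 10 H3K4me1-marked regions covered 43.4% of the locus, which 1.83% of genes reached. Of the 410 genes with as much cover, 72.4% had a Runx3-bound region. A single marked region, chr8:73326930-73336512, ran for 9583 bp over the start of the gene without a gap.

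Il12rb2 (ENSMUSG00000018341.6, chr6:67241312-67326182, minus strand) encodes the chain that is specific for IL-12 and recruits Stat4. At 84.9 kb it was the longest of the 10. It had 13 H3K4me1-marked regions, but these covered only 13.2% of the locus, a share that 27.6% of genes reached. Both Runx3-bound regions lay inside the gene, 8.49 kb apart. Il12rb2-R1, chr6:67297684-67298735, was 1052 bp wide and 28.0 kb downstream of the start, and it spanned the gap between H3K4me1-marked regions of 954 and 1500 bp. The midpoint, with TGTGGT 14 bp away, fell in this gap. Il12rb2-R2, chr6:67289280-67290165, was 886 bp wide and 36.5 kb downstream of the first start, and its midpoint lay 34 bp from the start of the shorter transcript Il12rb2-002 at chr6:67289688. Its TGTGGT began 30 bp from the ETS letters AGGAAG. This region was wholly inside an H3K4me1-marked region of 1873 bp.

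Il18r1 (ENSMUSG00000026070.8, chr1:40522397-40557699, plus strand), the chain that binds IL-18, had 4 Runx3-bound regions within the first 15 kb from its start, the most of the 10. Only 106 genes (0.474%) had as many or more. They came with 7 H3K4me1-marked regions and a cover of 17.9%, which 18.7% of genes reached. Il18r1-R1, chr1:40522120-40522898, was 779 bp wide and covered the annotated start, the only region of the 14 with its midpoint in an exon, in untranslated sequence. Its GC content of 64.0% was the highest of the 14. Besides 3 RUNX motifs, printed above, it held the STAT letters TTCCGGGAA 7 bp past the centre. H3K4me1 covered 73.9% of it.

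The other Il18r1 regions lay in introns 8.30, 10.3 and 14.2 kb downstream of the start, at distances of 8.19, 2.05 and 3.83 kb from each other in order. Il18r1-R2, chr1:40530216-40531176, 961 bp wide, had 1 TGTGGT, 14 bp from the ETS letters AGGAAG on the opposite strand, the closest pair in the central 200 bp of any of the 14 regions. Il18r1-R3, chr1:40532301-40533194, 894 bp wide, had TGTGGT 1 bp and 68 bp from its centre and touched a pair of H3K4me1-marked regions that together covered 99.2% of it. Il18r1-R4, chr1:40536245-40536917, 673 bp wide, had its single RUNX motif, TGTGGC, 120 bp from the centre, and the AP-1 letters TGACTCA 32 bp before the centre. All 4 also fell within 20 kb of Il1rl1, the gene for the IL-33 receptor, which lies beside Il18r1, so these positions cannot say which of the genes they serve.

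Il18rap (ENSMUSG00000026068.5, chr1:40572207-40608550, plus strand), the gene for the accessory chain that brings in MyD88, differed from its partner. It had no Runx3-bound region and only 2 H3K4me1-marked regions, of 2199 bp over the start and of 735 bp upstream, both counted at Il18r1 too. Its cover of 3.84% was reached by 57.7% of genes. The nearest Runx3-bound region was Il18r1-R4, 35.6 kb away.

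The neighbours Ifnar2, Il10rb, Ifnar1 and Ifngr2 span 232 kb with their flanks, chr16:91353028-91585414, all on the plus strand, and Ifnar2 and Il10rb overlap by 13288 bp. H3K4me1 covered 38.9% of this span, against 4.14% of the genome, in 37 regions. It held 9 Runx3-bound regions. The 6 described above were joined by 3 in the interval between Il10rb and Ifnar1, at chr16:91447929-91449067, chr16:91451866-91452715 and chr16:91458105-91458994, which lay 22.4, 26.2 and 26.9 kb from the nearest receptor gene.

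Il10rb-R1, Il10rb-R2 and the first 2 of these additional regions lay in the same H3K4me1-marked region, chr16:91441066-91454736. With 13671 bp this was the 114th widest of 76705, and only 2 H3K4me1-marked regions, itself included, held 4 or more Runx3-bound regions. The 7 RUNX motifs of chr16:91447929-91449067 were the most of the 4.

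**Figure D4:**
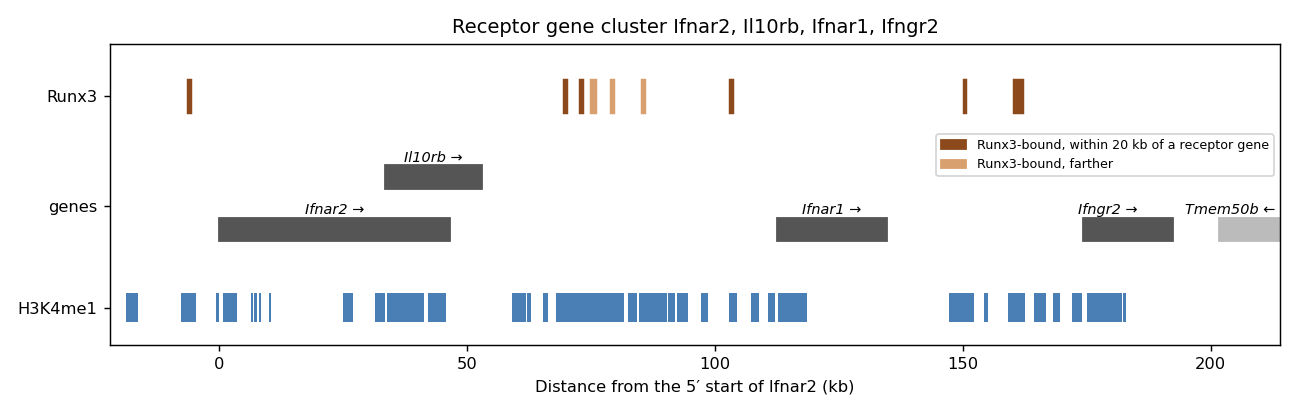
The gene cluster of Ifnar2, Il10rb, Ifnar1 and Ifngr2 by distance in kb from the start of Ifnar2, with Runx3-bound regions on top, genes in the middle (arrows give the strand, Tmem50b is no receptor gene) and H3K4me1-marked regions below. Of the 9 Runx3-bound regions, 5 lie close together between Il10rb and Ifnar1, 3 of them (light brown) over 20 kb from any of the receptor genes.

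By the annotation of protein-coding genes alone, 7 of the 14 Runx3-bound regions lay between genes, 6 in introns and 1 in an untranslated exon. The distance from the nearest annotated TSS, of any gene type, was over 5 kb for 12 of 14 (85.7%, 60.1 to 96.0%), against 63.9% of all Runx3-bound regions. The exceptions were Il18r1-R1 and Il12rb2-R2. The median width was 852 bp (range of order statistics 673 to 1052 bp), next to 851 bp for all 4934, so the receptor regions were of ordinary width.

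All 14 overlapped H3K4me1 (100%, 78.5 to 100%), as did 78.8% of all Runx3-bound regions. Of the 14, 10 were wholly inside (71.4%, 45.4 to 88.3%), against 50.6% of all, and 2 touched more than 1 marked region (14.3%, 4.01 to 39.9%), against 10.5% of all. The last values lay near the general share. Seen from the mark, 13 of the 84 H3K4me1-marked regions at receptors held Runx3 (15.5%), against 5.49% of all. Those 13 had a median width of 2018 bp and the other 71 a median of 1552 bp, where the medians over all marked regions were 2260 bp with Runx3 and 946 bp without.

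A RUNX motif was found somewhere in each of the 14 regions (100%, 78.5 to 100%), as in 88.8% of all. In the 200 bp around the midpoint it was found in 11 (78.6%, 52.4 to 92.4%), against 66.0%, and 6 had 2 or more there (42.9%, 21.4 to 67.4%), against 28.9%. Without it near the centre were Ifngr1-R1, Ifngr2-R1 and Il18r1-R4. Each of these intervals includes the general share. The word TGTGGT was found in 8 of 14 windows (46.6% of all), TGTGGC in 4 (22.4%), TGCGGT in 2 (10.7%) and TGCGGC in 2 (5.47%). The 71 H3K4me1-marked regions at receptors that lacked Runx3 held a RUNX motif in the central 200 bp in 21 cases (29.6%), against 32.1% of all such regions.

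Other motifs were searched in the same 200 bp on both strands. ETS letters (CGGAAG or AGGAAG or CGGAAA or AGGAAA) were in 8 of 14 regions (57.1%, 32.6 to 78.6%), against 63.8% of all, and in 3 (21.4%, 7.57 to 47.6%) they began within 50 bp of a RUNX motif, against 32.6%. STAT letters (TTCNNNGAA) were in Ifngr1-R2, Ifngr2-R1 and Il18r1-R1 (3 of 14, 7.57 to 47.6%), against 6.73%. AP-1 letters (TGACTCA or TGAGTCA) were in Ifnar1-R1, Ifnar2-R1 and Il18r1-R4 (3 of 14), against 4.58%. T-box letters (GGTGTGA) were in Il10rb-R2 and Ifngr2-R1 (2 of 14, 4.01 to 39.9%), against 3.38%. E-box letters (CACCTG or CATCTG) were in 3 of 14, against 26.6%. With 14 regions, counts of 2 or 3 leave wide intervals, and a match of letters does not show that a factor was bound.

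**Figure D5:**
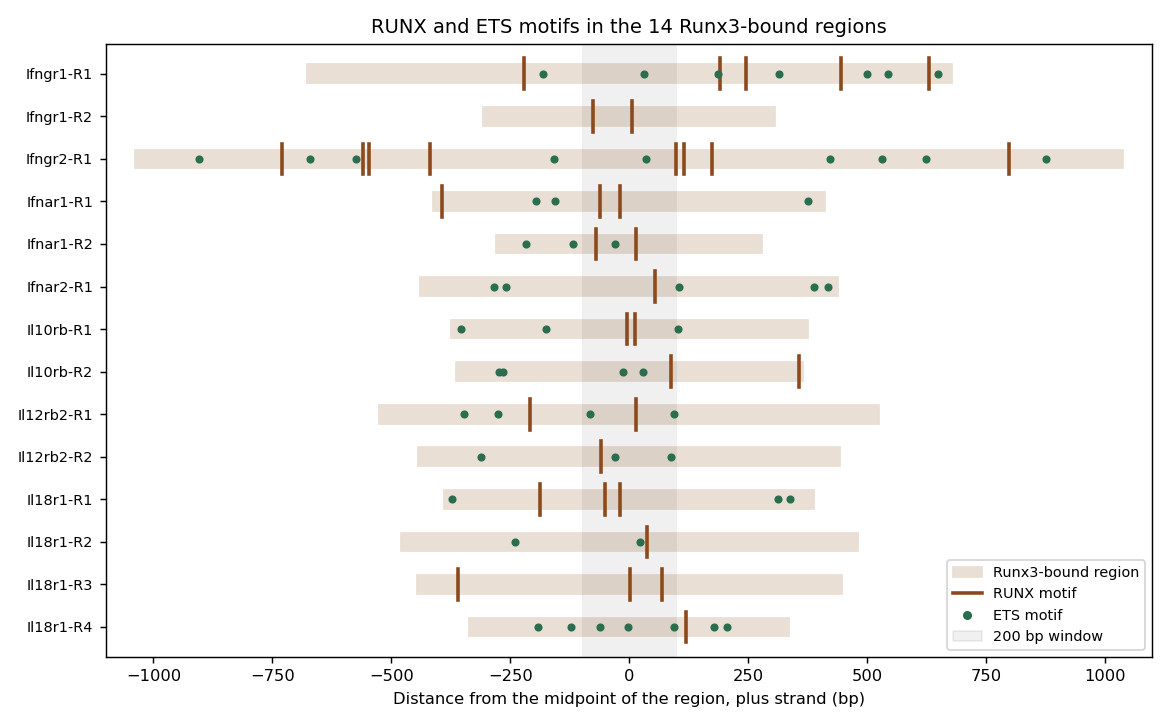
Positions of RUNX motifs (brown ticks) and ETS motifs (green points) in the 14 Runx3-bound regions (light bars, to scale), in bp from the midpoint on the plus strand, with the central 200 bp shaded. In 11 regions a RUNX motif lies whole in the shaded window, and the wide Ifngr2-R1 (2077 bp) carries 8, of which the tick at 98 bp marks a motif that runs over the border of the window.

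Of 33 further genes of these pathways, 13 had a Runx3-bound region and 32 had H3K4me1, the latter against 73.6% of all genes. Among the signal transducers, Stat4, the STAT of the IL-12 receptor, had 6 Runx3-bound regions, Irf9 had 2, and Stat2 and Stat3 had 1 each. Of the kinases, Jak1 had 5 and Tyk2 had 1, while Jak2 had 0 with 13 H3K4me1-marked regions. The inhibitors Socs1, Socs3 and Usp18 had 0 each, with 7, 11 and 9 H3K4me1-marked regions. Among the 4 adaptors and kinases of the IL-18 pathway, Myd88 had 1 and Irak1, Irak4 and Traf6 had 0. Of 6 ligand genes and the decoy Il18bp, counted together, only Il12a had a region, and their median cover of 5.01% was close to that of all genes. Of 11 related receptors, Il1rl1 (the same 4 regions as Il18r1), Il20rb (2), Il20ra (1) and Il6st (1) had Runx3. Il23r, which pairs with Il12rb1 in the IL-23 receptor, had 0 Runx3-bound and 5 H3K4me1-marked regions. The share of genes with Runx3, 13 of 33, stands beside 19.8% of all genes.

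The receptors of the common gamma-chain family, which bind IL-2, IL-7, IL-15 and related cytokines, were set beside the 10 receptors as another group of cytokine receptor genes. There 5 of 8 had Runx3, against 19.8% of all genes (Il2ra 4, Il21r 4, Il2rb 2, Il4ra 2 and Il7r 1). A region near a pair of genes was counted at both. In all there were 12 distinct Runx3-bound and 54 distinct H3K4me1-marked regions. Their median H3K4me1 cover was 23.1% and their median number of Runx3-bound regions 1.5, the same as for the 10 receptors. No difference between the families was tested.

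Marker genes of several cell types were counted in the same way. Over all protein-coding genes, 73.6% had H3K4me1 and 19.8% had Runx3. All 8 T-cell genes (Cd3e, Cd3g, Cd3d, Cd8a, Cd8b1, Cd5, Cd2 and Lck) had 1 to 5 Runx3-bound and 8 to 19 H3K4me1-marked regions. All 5 B-cell genes also had H3K4me1, with 8 to 26 regions, and Runx3-bound regions lay at Cd79a (2) and Pax5 (1) but not at Ms4a1 or Cd79b. Of the 5 myeloid genes, 4 had H3K4me1, with 21 regions at Itgam and 4 or 5 at the other 3, while Lyz2 had 0. Itgam also had 1 Runx3-bound region, and the other 4 had 0. Of the NK cell genes, Ncr1 had 0 of both and Klrb1c 12 H3K4me1-marked regions. Median H3K4me1 cover was 39.9% at the T-cell genes, 32.1% at the B-cell genes, 9.40% at the myeloid genes and 11.8% at the NK cell genes. H3K4me1 thus set T-cell and B-cell genes little apart. How much other cells of the spleen added to the marks at the receptor genes was not tested.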

How the data were processed

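The submitters sequenced 7 libraries. Per the labels and the study's methods, the authors aligned reads to mm9 with ELAND, kept unique alignments, joined both repeats and called regions with MACS against joined NIS, the larger data set scaled to the smaller. Their processing notes name CASAVA 1.6 and CASAVA 1.7. The deposited values are start and end positions of called regions, with no count, score or p-value. Starts were raised by 1 to count from 1. All regions lay within the lengths of the 20 NCBIM37 chromosomes. Genes, transcripts and exons came from GENCODE on NCBIM37. Overlap meant 1 shared bp or more. Motifs were searched by exact letters on both strands. Code ran in Python 3.11.15 with numpy 2.4.6, scipy 1.17.1 and matplotlib 3.10.9, and was checked on simulated regions. All 10 receptor genes and all their Runx3-bound regions are named. The genes, motifs and further gene lists were chosen with earlier results of these data known. Joined calling favours regions seen across the summed reads and hides differences between repeats. Some genes of these lists are not reported here by name.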

Additional observations from a re-analysis of the deposited data

How the results depend on the processing

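The results were recomputed under 36 alternatives, of which 29 stayed within 1.5 times the count or within the interval of the reported value. A margin of 5 kb in place of 20 kb left 7 Runx3-bound and 49 H3K4me1-marked regions, and 3 receptor genes with Runx3 (Ifngr1, Il12rb2 and Il18r1), against 13.0% of all genes at that margin. With 50 kb there were 9 receptor genes, against 30.8%. Keeping regions at or above the median width left 7 Runx3-bound regions and 8 pathway genes. When gaps of up to 1000 bp were closed, the H3K4me1-marked regions became 46, and searching whole regions raised the RUNX motif share from 78.6% to 100%. These follow from the definitions, since a narrower margin or fewer regions admit less and a longer search finds more. No paired analysis was possible because each antibody has a single list called on joined repeats. The single libraries were not analysed here, so no replicate was left out. Called regions without heights set no limit on weaker binding.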
